A study of Mus musculus with 2 samples.

Results

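LSD1 (lysine-specific demethylase 1, encoded by Kdm1a) was mapped in mouse primary brown adipocytes by chromatin immunoprecipitation and sequencing, and the regions described here are its high-scoring peaks that lie away from gene starts in CpG-poor sequence. They were chosen by 3 criteria. The peak score had to be at least 300, the midpoint had to lie more than 2.5 kb from every protein-coding transcript start of GENCODE M21, and the observed over expected CpG ratio of the whole peak had to be under 0.6. That left 2186 of 59175 peaks (3.69%), called member peaks from here on. They made up 25.6% of the 8532 peaks that met the score minimum, 87.7% of the 2492 peaks that met it and were distal, and 5.35% of the 40841 distal CpG-poor peaks of any score.

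The series has 1 LSD1 immunoprecipitate, made with an in-house antibody, beside 1 library of input DNA without antibody. Both came from C57BL/6 N cells labelled as control, passaged 2 to 3 times. Differentiation took 10 days. The medium held rosiglitazone and dexamethasone at 1 µM each, isobutylmethylxanthine at 500 µM, indomethacin at 125 nM, insulin at 850 nM and the thyroid hormone T3 at 1 nM. Serum at 20% is also recorded for both libraries, and fixation lasted 5 min. A single peak list was deposited, with no read counts and no replicate, so depth is unknown and no condition can be compared. The labelled cell type cannot be checked in a list of peaks, which holds no expression values. All intervals below are 95% intervals that cover counting error over peaks of this 1 library, and neighbouring peaks are not independent.

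LSD1 uses flavin to take methyl groups off lysines of histone H3, acts in complexes with CoREST proteins and histone deacetylases, and is brought to DNA by sequence-specific factors. Among these is REST, a zinc finger repressor that keeps neuronal genes silent outside the nervous system and binds the CoREST complex. Distal, CpG-poor sites bound by chromatin enzymes are often enhancers, stretches of DNA that hold clusters of transcription factor sites and act on promoters at a distance. AP-1, a dimer of Fos and Jun proteins, and C/EBP factors are common occupants of enhancers in adipocytes and their precursors.

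The windows below show what such regions look like in sequence. For each motif that stood out most against neighbouring DNA, the central 300 bp of the highest-scoring suitable member peak is given on the plus strand of mm10 (GRCm38.p6 reference), with the motif match in capitals. Windows that touch an untranslated region or hold repeated sequence were passed over. The first carries a REST match in an intron of Wdr25 and belongs to a peak scoring 997. The second carries an AP-1 match in an intron shared by Syn3 and Timp3, the gene of a metalloproteinase inhibitor (score 1668).
REST, chr12:108994686-108994985: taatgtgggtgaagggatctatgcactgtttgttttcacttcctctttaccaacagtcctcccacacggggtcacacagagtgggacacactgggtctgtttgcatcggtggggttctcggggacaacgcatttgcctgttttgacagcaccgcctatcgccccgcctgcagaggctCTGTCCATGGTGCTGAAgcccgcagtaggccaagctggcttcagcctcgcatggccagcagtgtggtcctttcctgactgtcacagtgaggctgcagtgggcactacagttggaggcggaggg
AP-1, chr10:86339515-86339814: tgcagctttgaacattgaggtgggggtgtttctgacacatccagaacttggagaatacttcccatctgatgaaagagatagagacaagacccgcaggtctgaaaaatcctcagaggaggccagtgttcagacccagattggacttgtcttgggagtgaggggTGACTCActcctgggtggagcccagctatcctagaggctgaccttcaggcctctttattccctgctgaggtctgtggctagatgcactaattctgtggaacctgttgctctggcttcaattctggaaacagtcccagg
The third has an SP GC box, the site of the SP and KLF zinc finger factors, 77.8 kb upstream of Lep, the leptin gene (score 1965). The fourth has a TEAD site, bound by the DNA-binding partners of the Hippo pathway, 32.3 kb from the start of Snai1, the gene of a zinc finger repressor (score 1478), and also holds an AP-1 match.
SP GC box, chr6:28982317-28982616: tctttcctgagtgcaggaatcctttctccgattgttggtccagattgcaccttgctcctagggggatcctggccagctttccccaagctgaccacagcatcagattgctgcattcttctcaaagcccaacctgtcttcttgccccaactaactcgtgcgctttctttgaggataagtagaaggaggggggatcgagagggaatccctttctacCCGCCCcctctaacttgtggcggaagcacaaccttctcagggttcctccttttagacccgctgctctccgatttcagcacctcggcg
TEAD, chr2:167570348-167570647: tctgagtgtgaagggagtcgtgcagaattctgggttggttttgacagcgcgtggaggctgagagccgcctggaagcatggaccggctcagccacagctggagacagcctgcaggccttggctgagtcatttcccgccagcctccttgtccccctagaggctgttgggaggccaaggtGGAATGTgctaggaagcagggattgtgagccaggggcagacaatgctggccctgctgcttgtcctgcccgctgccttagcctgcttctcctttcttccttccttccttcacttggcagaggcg
A further window follows from the same rule, but only 2 member peaks had this motif, so nothing is read from it. It shows a full NFI site in an intron of Nfia, which encodes an NFI factor (score 637).
NFI full site, chr4:97869177-97869476: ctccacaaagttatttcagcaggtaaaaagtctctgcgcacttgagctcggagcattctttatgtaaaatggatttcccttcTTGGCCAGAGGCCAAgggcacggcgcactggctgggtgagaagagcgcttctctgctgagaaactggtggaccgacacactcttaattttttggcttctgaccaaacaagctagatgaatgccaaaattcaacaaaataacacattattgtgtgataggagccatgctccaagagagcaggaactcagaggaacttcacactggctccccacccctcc

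Member peaks had a median score of 394 (quartiles 339 and 510, range 300.07 to 3100), and 67 of them scored 1000 or more. Their median width was 1171 bp, against 598 bp for the 38655 lower-scoring distal CpG-poor peaks, and together they covered 2767 kb. Score and CpG ratio are fixed by the choice of peaks, and width goes with the score, so these values only describe the set. The median CpG ratio was 0.236, far under the limit of 0.6, and median GC content was 50%, against 46.4% in the lower-scoring peaks. Nothing separated the set at its edge: the 4 lowest-scoring member peaks had scores of 300.07 to 300.11, and the 4 highest of the peaks left out on score alone had 299.69 to 299.83.

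Most member peaks were intergenic or intronic. The midpoint was intergenic for 961 of the 2186 (44.0%, 41.9 to 46.1%) and intronic in a protein-coding gene for 905 (41.4%, 39.4 to 43.5%). Introns of non-coding genes held 163, other exons 90, untranslated regions 38 and coding exons 29. Introns of protein-coding genes were a smaller share than among the lower-scoring distal CpG-poor peaks, where they held 46.2%, a difference of -4.78 points (-6.89 to -2.64). Against the 306 high-scoring distal CpG-rich peaks, with 13.7% in such introns, the share was 27.7 points higher (22.9 to 31.7). Coding exons held the midpoint of 1.33% of member peaks and 15.03% of the CpG-rich peaks (difference -13.7 points, -18.2 to -10.1). Other exons held 4.12% of member peaks and 18.3% of the CpG-rich ones (difference -14.2 points, -18.96 to -10.1).

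Member peaks were also closer to protein-coding starts than lower-scoring ones. They were nevertheless more often intergenic, at 44.0% against 41.3% (difference 2.70 points, 0.578 to 4.85). The median distance to the nearest protein-coding start was 23318 bp for member peaks, against 30054 bp for lower-scoring distal CpG-poor peaks. Of the member peaks, 591 lay 2.5 to 10 kb from a start, 965 lay 10 to 50 kb away, 318 were 50 to 100 kb off and 312 lay beyond that. The farthest class held 14.3% of member peaks, against 21.4% of the lower-scoring peaks (difference -7.09 points, -8.55 to -5.51). The nearest start lay downstream of the peak for 999 member peaks (45.7%, 43.6 to 47.8%), so somewhat fewer lay upstream of a start than downstream. Lower-scoring distal CpG-poor peaks had 43.7%, and the interval of that difference, 2.01 points (-0.124 to 4.16), includes 0.

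**Figure D1:**
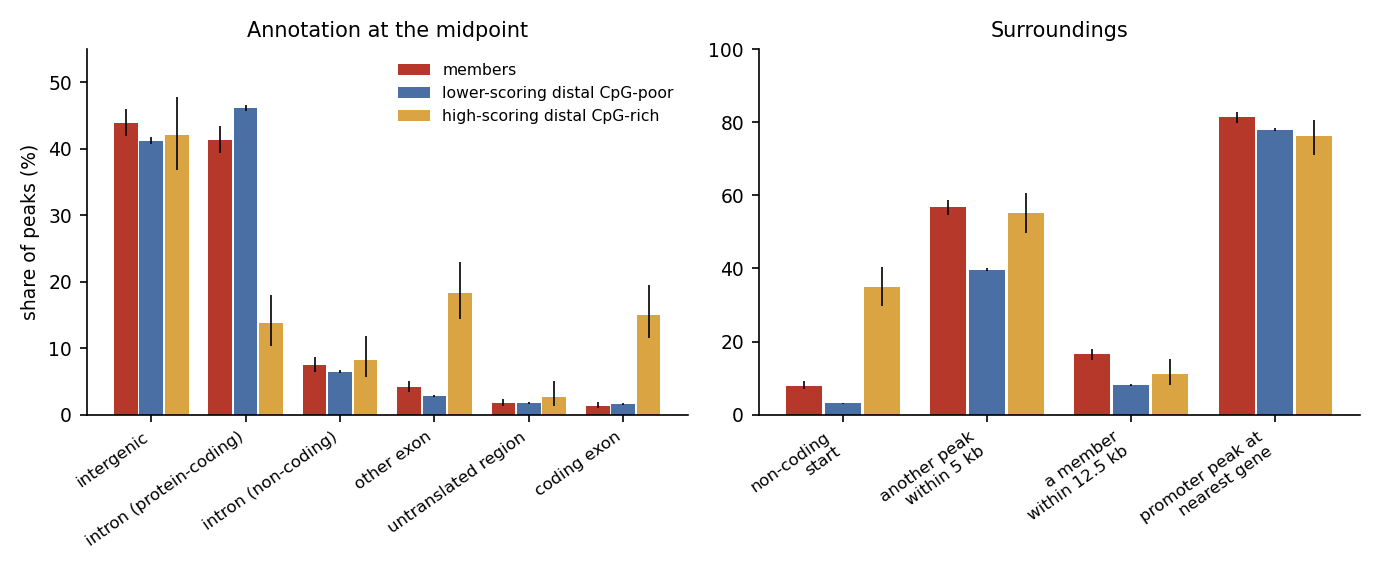
Left, share of peaks (%) by annotation at the midpoint. Right, share near a non-coding start, with another peak within 5 kb, with a member peak within 12.5 kb, and with a promoter peak at the nearest protein-coding gene. Bars are member peaks, lower-scoring distal CpG-poor peaks and high-scoring distal CpG-rich peaks, with Wilson 95% intervals. Another peak lay within 5 kb of 56.8% of member peaks, against 39.7% of lower-scoring ones.

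A start of a non-coding gene lay near 174 of the member peaks (7.96%, 6.90 to 9.17%), counting any overlap with 500 bp either side of the start. Distance from non-coding starts was not used to choose member peaks, but score and CpG ratio were, and the share moved with both. The share was 3.09% among lower-scoring distal CpG-poor peaks, 4.87 points lower than in member peaks (3.79 to 6.09), and 34.97% among the high-scoring CpG-rich peaks. All peaks had 6.22%, and high-scoring CpG-poor peaks near protein-coding starts had 11.5%. Member peaks minus the latter gave -3.53 points (-5.62 to -1.53). Wider peaks overlap more. When the midpoint itself had to lie within 500 bp, the share was 5.44% in member peaks and 2.03% in lower-scoring ones. That difference was 3.42 points (2.53 to 4.46). By the same rule the CpG-poor peaks near protein-coding starts had 6.26%, a difference of -0.815 points (-2.48 to 0.744). Long non-coding starts accounted for 136 member peaks, small RNA starts for 25 and pseudogene starts for 20.

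The named non-coding genes among these, picked after their values were seen, include several well-known loci. Neat1, the architectural RNA of nuclear paraspeckles, had a member peak scoring 701 at chr19:5844670-5846486. Mir22hg, host of miR-22, had one scoring 1492. Trp53cor1, the p53-induced lincRNA-p21 beside Cdkn1a, had one scoring 820, and Lncpint, also a p53-regulated RNA, had 2, scoring 905 and 506. Among microRNA genes, Mir7b had a member peak scoring 1374, the hypoxia-induced Mir210 one scoring 748, Mir139 one scoring 391 and the neuronal Mir124a-3 one scoring 371. The host gene of another brain microRNA, Mir9-3hg, had one scoring 504.

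Repeated sequence touched a minority of member peaks but weighed on the top of the list. At least 10% of the 32-base words occurred more than once in the genome in 215 member peaks (9.84%, against 11.5% of lower-scoring ones), and over 50% did in 41. Words shared with the mitochondrial genome made up at least 10% of 7 member peaks, out of 9 such peaks in the whole list. The peak tied for the highest score, chr1:24611022-24616636, consisted to 81.7% of such words, and the fourth, chr12:97061060-97061996, to 33.3%. The part of these copies in the scores was not tested. The Dynlt1b region on chromosome 17 (score 1869) was 88.3% repeated words.

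Of the 15 highest-scoring member peaks, the others with mostly single-copy sequence lay at genes of varied function. The score of 3100, at which 33 peaks of the whole list were tied, was reached by a peak over the untranslated region of Scd1, the stearoyl-CoA desaturase that makes monounsaturated fatty acids (chr19:44394105-44397990), and by one over the histone gene Hist1h2be. The 3886-bp Scd1 peak lay 11.7 kb from the start, and the promoter peak of the same gene scored 484. Ckm, the muscle creatine kinase, had a peak scoring 2444 at 10.5 kb from its start with no promoter peak, and this peak also lay at the start of the non-coding gene A930016O22Rik. Synpo, which encodes an actin-associated protein, had one scoring 2390 at 3.46 kb.

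The Lep peak, shown above with its GC box, scored 1965, lay 77.8 kb from Lep and overlapped the start of the non-coding gene Gm3294. Leptin is the white-fat-selective hormone of satiety, and its promoter carried no peak. Further down came Nanos3 (1808), Ccnc for cyclin C (1777), Rpusd4 (1713), the histone gene Hist1h2bp (1703), Timp3 (1668), Erich1 (1645) and Arid3a, a DNA-binding factor (1629). The Timp3, Erich1 and Arid3a peaks lay in introns of protein-coding genes, 36.8, 17.7 and 3.19 kb from the nearest start, and the Rpusd4 peak in an intron of a non-coding gene.

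Motifs were searched as exact consensus letters on either strand in the central 300 bp. Of the 25 motifs, 15 are short enough to spell out. Those of leucine zipper factors were AP-1 (TGACTCA), the cAMP response element CRE (TGACGTCA) and C/EBP (TTGCNNAA). Zinc finger factors were represented by the SP GC box (GGGCGG), KLF factors by CCACACCC and GATA factors by AGATAA. The E-box of CLOCK and MYC was read as CACGTG, and that of the E-proteins, which dimerise with lineage factors, as CAGCTG. For STAT factors, which carry cytokine signals, TTCNNNGAA was used, and for the oestrogen-related receptors (ERR) TCAAGGTCA. ETS factors were searched as CNGGAAGT, the forkhead FOX factors as TGTTTAC and RUNX factors as AACCACA. TEAD was searched as ACATTCC, and a single NFI site as TTGGCA. The other 10 motifs are longer and are given by name alone: the PPAR/RXR direct repeat, glucocorticoid receptor, NFI full site, EBF, CTCF, IRF, NRF1, SRF CArG box, MEF2 and REST. A CRE does not contain the AP-1 letters, and an NFI single site can overlap a full one. A match is a description of sequence, not a bound site, and a missing match says only that these letters are not in the window.

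AP-1 letters were found in 378 member peaks (17.3%, 15.8 to 18.9%), in 11.2% of lower-scoring distal CpG-poor peaks and in 9.40% of all 59175 peaks. The difference to the lower-scoring peaks was 6.07 points (4.51 to 7.75). Windows of the same length 2 kb to either side of the member peaks held AP-1 in 5.92%, 11.4 points less (9.67 to 13.1). The high-scoring CpG-rich distal peaks had only 1.961% and the high-scoring CpG-poor peaks near protein-coding starts 5.89%. AP-1 was thus a feature that high-scoring peaks at gene starts or in CpG-rich DNA carried less often than the member peaks, by 11.4 points (9.34 to 13.4) and 15.3 points (12.6 to 17.3).

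The difference to lower-scoring peaks was smaller at widths of 900 to 1400 bp. There, AP-1 was found in 18.9% of 1336 member peaks and 16.7% of 2600 lower-scoring ones. The interval of that difference, 2.28 points (-0.21 to 4.87), includes 0. Those 2600 peaks had a median score of 225, against 98.8 for all lower-scoring distal CpG-poor peaks. Width and score therefore cannot be told apart in this range, which is also used for other motifs below. Across distal CpG-poor peaks by score, the AP-1 share was 9.44% at scores of 50 to 100, 12.3% at 100 to 200, 16.9% at 200 to 300, 17.4% at 300 to 400, 17.8% at 400 to 600 and 16.2% at 600 to 1000. The increase lay under the score minimum, and the share within the member peaks was level. Median width went with score, at 590 bp in the lowest of these bands and 1556 bp in the highest.

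All of these AP-1 sites lay in the central 300 bp, because only that window was searched. Within it, 135 of the 378 nearest to a midpoint (35.7%) lay within 50 bp of the midpoint. Sites from 5 high-scoring peaks are shown with their flanks, oriented along the motif. The core is the same in each because only exact letters were searched.
Timp3, chr10:86339667-86339693: gagtgaggggTGACTCActcctgggtg
Snai1, chr2:167570459-167570485, minus strand: tggcgggaaaTGACTCAgccaaggcct
Itgb5, chr16:33916772-33916798, minus strand: gccagactagTGACTCAacttcattgg
Lif, chr11:4299476-4299502: aaattccagcTGACTCAtctgtgggtg
Serpinh1, chr7:99360454-99360480: cagtctgctcTGACTCAggagggaaac
These peaks scored 1668, 1478, 1208, 1166 and 1149. Itgb5 encodes an integrin subunit, Lif a cytokine of the interleukin-6 family and Serpinh1 a collagen chaperone. E-protein E-boxes accompanied AP-1 in 31.7% of AP-1 member peaks, against 24.4% of the other 1808 (difference 7.35 points, 2.43 to 12.6). ETS sites did so in 10.6% against 6.08%, a difference of 4.50 points (1.53 to 8.15). SP GC boxes were fewer with AP-1, at 8.99% against 15.4% (difference -6.38 points, -9.41 to -2.71).

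**Figure D2:**
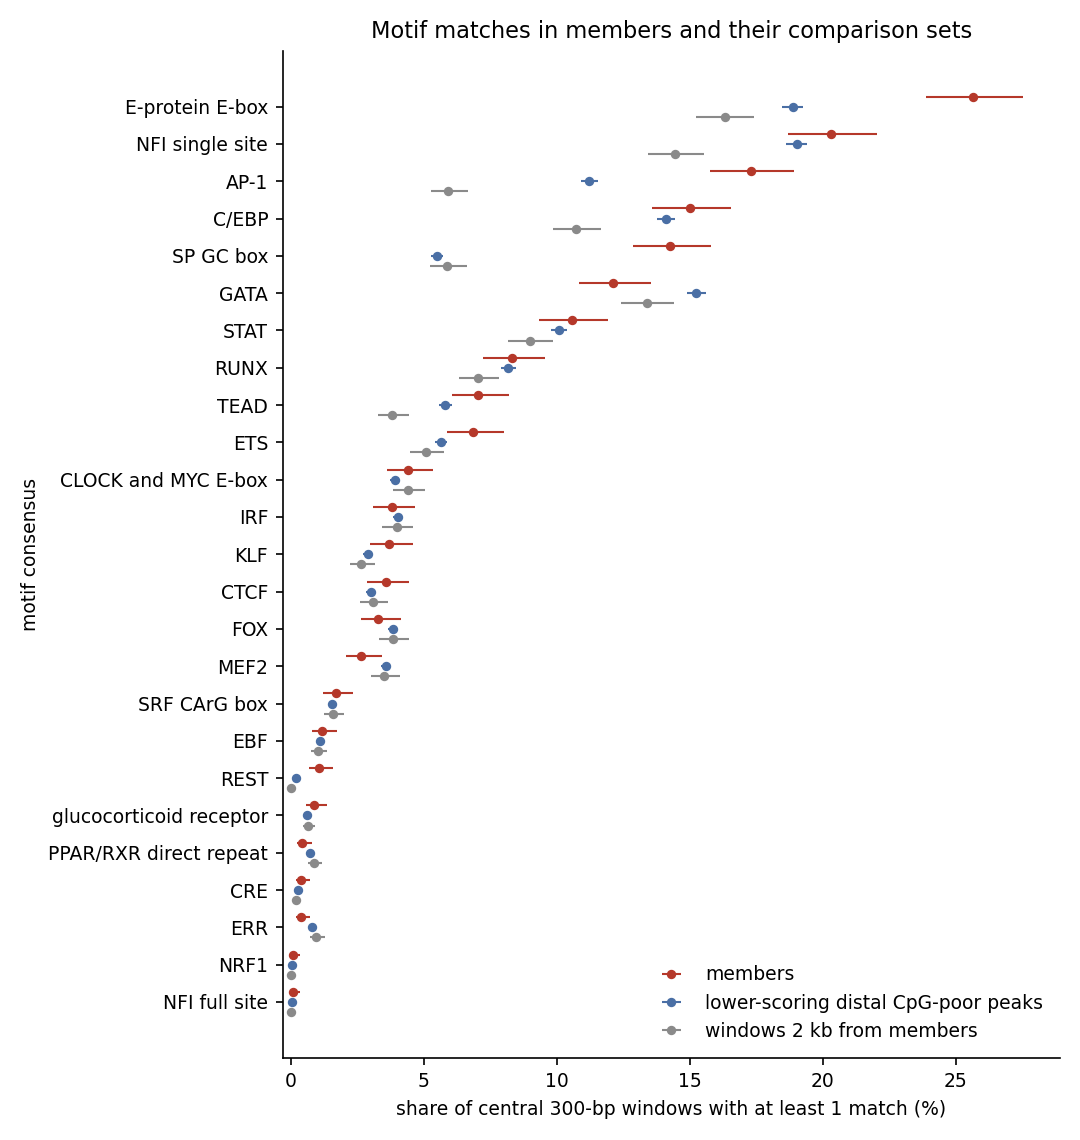
Share of central 300-bp windows with at least 1 match (%) for 25 motifs, in member peaks, in lower-scoring distal CpG-poor peaks and in windows 2 kb from member peaks, with Wilson 95% intervals. AP-1 was at 17.3%, 11.2% and 5.92%, and the SP GC box at 14.3%, 5.50% and 5.88%.

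REST matches were rare, but more frequent than in lower-scoring peaks. They were found in 23 member peaks (1.05%, 0.702 to 1.57%), in 0.210% of lower-scoring distal CpG-poor peaks and in 0.286% of all peaks. The difference to the lower-scoring peaks was 0.843 points (0.489 to 1.37). None of the 4372 windows 2 kb from member peaks had a match, which allows a share of up to 0.0878% (Wilson upper limit). High-scoring CpG-poor peaks near protein-coding starts, with 16 of 1358 (1.18%), did not differ detectably, the difference being -0.126 points (-0.933 to 0.564). Among distal CpG-poor peaks scoring under 1000, the REST share was higher in higher score bands, at 0.141% for scores of 50 to 100, 0.530% at 200 to 300, 0.979% at 400 to 600 and 3.02% at 600 to 1000, the last from 8 of 265 peaks. At 1000 or more it was 1.49%, from 1 of 67 peaks (0.264 to 7.98%). At widths of 900 to 1400 bp the difference was 0.997 points (0.363 to 1.83), and with GC content also held at 45 to 55% it was 0.772 points with an interval that includes 0 (-0.017 to 1.80).

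The 23 REST peaks were singled out after their values were seen. They were chosen by a match in the central 300 bp, which limits its distance from the midpoint, and the same limit held for AP-1. The REST match nearest the midpoint lay a median of 35 bp from it, and within 50 bp in 15 of 23 peaks. For AP-1 the median was 70.5 bp, with 35.7% within 50 bp. The widths of the REST peaks ran from 644 to 1370 bp (median 1055) and 20 of the 23 were no wider than the median member peak. None of the 23 held an AP-1 match, against 378 of all 2186 member peaks (17.3%), and 23 peaks are few for setting such a share. Scores ran from 302.34 to 1431, with a median of 556. The sites below, oriented along the motif with the match in capitals, are those of 10 of the highest-scoring peaks.
Smim17, chr7:6410268-6410296: ccgtggTTCAGCACCAAGGACAGcgtgcc
Wdr25, chr12:108994857-108994885, minus strand: gcgggcTTCAGCACCATGGACAGagcctc
Med27, chr2:29310155-29310183, minus strand: cgggccTTCAGAACCACGGACAGctacca
Kcnk9, chr15:72568655-72568683, minus strand: ttttttTTCAGCACCGAGGACAGtgatcg
Swsap1, chr9:21950524-21950552, minus strand: cgcagaGTCAGCACCAAGGACAGaggcgt
Syt7, chr19:10403275-10403303: ggagtgTTCAGCACCAAGGACAGggatat
Crhr2, chr6:55108501-55108529: ggaccaTTCAGCACCACGGACAGcaaaac
Cabp7, chr11:4750447-4750475: cccacgTTCAGCACCAGGGAGAGcgccca
Crtac1, chr19:42326089-42326117, minus strand: tcagacTTCAGCACCCTAGACAGcgacta
Dot1l, chr10:80748802-80748830, minus strand: aggaatTTCAGCACCAAGGAGAGctccag
The names are of the nearest protein-coding start. No test of their function was made, and the neuronal list, described below with the other lists, had a member peak at 1 of 14 genes (7.14%), against 7.71% of all genes. Kcnk9 encodes a potassium channel (score 853), Syt7 a synaptotagmin that senses calcium in vesicle release (722), Crhr2 a corticotropin-releasing hormone receptor (694) and Cabp7 a calcium-binding protein (681). Others of the 23 were Celf4, an RNA-binding protein of brain (943), Chrm4, a muscarinic acetylcholine receptor (556), Lingo1 (515), Rbfox3, the neuronal nuclear antigen (395), Pou4f2, a transcription factor of retinal neurons (385), Kcnh2 (384) and the serotonin receptor Htr7 (346). The remaining nearest genes were A230050P20Rik, Acd, Disp3, Rasgef1b, Tti1 and Nectin1, with scores of 302.34 to 498. The nearest gene had a promoter peak for 81.4% of all member peaks, and had none for 9 of these 23.

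E-protein E-boxes, the sites of basic helix-loop-helix dimers, were the most frequent motif of the 25, in 561 member peaks (25.7%, 23.9 to 27.5%). Lower-scoring distal CpG-poor peaks had 18.9%, all peaks 18.6% and windows 2 kb away 16.3%. The difference to lower-scoring peaks, 6.79 points (4.96 to 8.71), was 4.42 points (1.60 to 7.30) at widths of 900 to 1400 bp. Within the member peaks, the share was 23.7% (21.3 to 26.3%) at scores of 300 to 400, 26.6% (23.5 to 29.9%) at 400 to 600 and 29.8% (24.6 to 35.6%) at 600 to 1000, and these intervals overlap.

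The SP GC box was found in 312 member peaks (14.3%, 12.9 to 15.8%), in 5.50% of lower-scoring distal CpG-poor peaks and in 5.88% of windows 2 kb away. It was far below the 55.9% of the high-scoring CpG-rich distal peaks and the 17.5% of all peaks. Because the motif holds a CpG, the limit on the CpG ratio bears on it. The share also went with GC content, whose median was 50% in member peaks and 46.4% in lower-scoring ones. Among member peaks split by GC content, it was 4.66% in the lowest group, 12.4% in the middle one and 25.8% in the highest. The part of GC content in the difference to lower-scoring peaks was not tested. At widths of 900 to 1400 bp the difference to lower-scoring peaks was 5.78 points (3.63 to 8.05), against 8.78 points (7.35 to 10.3) over all widths. TEAD matches were in 154 member peaks (7.04%), against 5.81% of lower-scoring peaks, 3.82% of windows 2 kb away and 5.00% of all peaks. The TEAD difference to lower-scoring peaks, 1.23 points (0.205 to 2.40), was -0.789 points (-2.37 to 0.914) in the 900 to 1400 bp range.

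Among other motifs of adipocyte factors, the results varied by comparison. The PPAR/RXR direct repeat, the site of the master adipogenic receptor, was found in 9 member peaks (0.412%). Lower-scoring distal CpG-poor peaks had 0.709%, and the interval of that difference, -0.297 points (-0.511 to 0.080), includes 0. All peaks had 0.578%, and windows 2 kb away had 0.869% (difference to those windows -0.457 points, -0.833 to -0.020). ERR sites, bound by oestrogen-related receptors that drive mitochondrial genes, were in 8 member peaks (0.366%), against 0.797% of lower-scoring peaks (difference -0.431 points, -0.634 to -0.066). C/EBP was in 328 member peaks (13.6 to 16.6%), 14.1% of lower-scoring ones and 12.5% of all peaks. The interval of its difference to the lower-scoring peaks, 0.890 points (-0.588 to 2.49), includes 0, but windows 2 kb away held it in 10.7%, 4.28 points less than member peaks (2.55 to 6.07). GATA was in 12.1% of member peaks and 15.2% of lower-scoring ones (difference -3.12 points, -4.47 to -1.64). Windows 2 kb from member peaks held it in 13.4%, and the interval of that difference includes 0. Windows 2 kb from the lower-scoring peaks held it in 16.2%. An exact consensus misses weaker sites. Of the 25 motifs, the interval of the difference lay above 0 for 10 and below 0 for 2 against windows 2 kb away, and above 0 for 7 and below 0 for 3 against lower-scoring peaks, with no adjustment for their number.

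**Figure D3:**
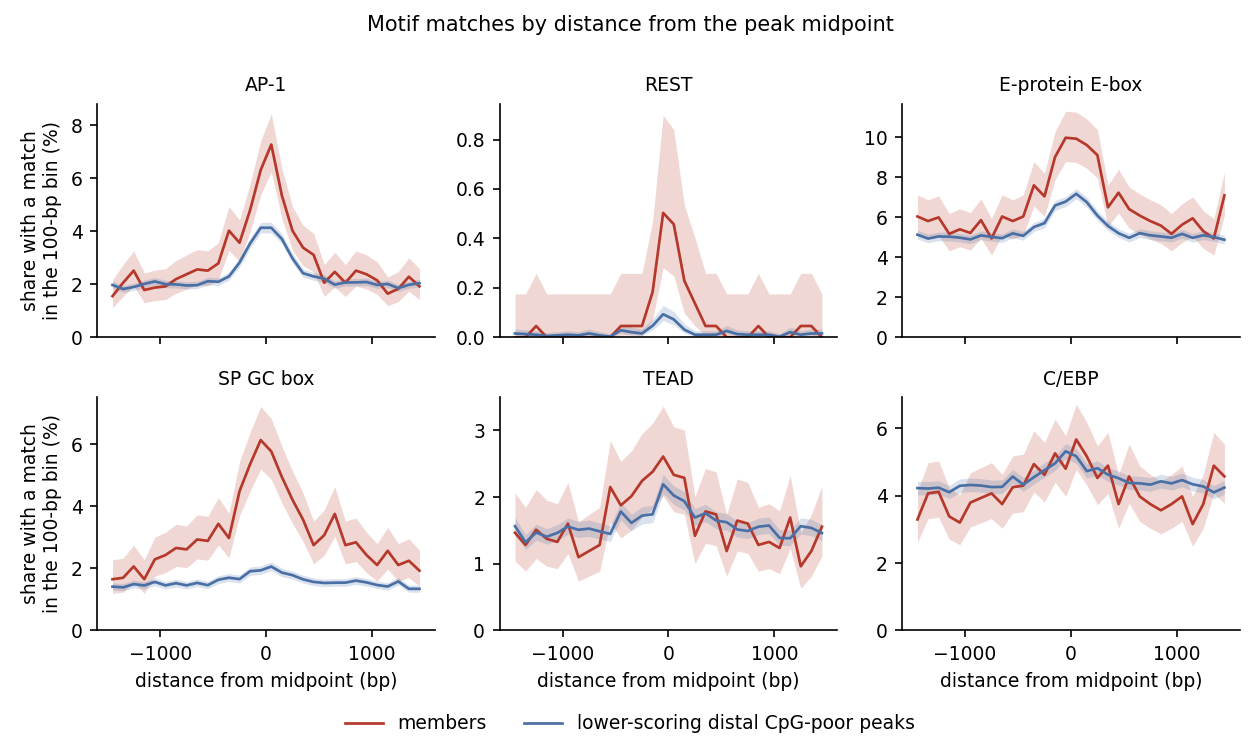
Share of peaks with a match in each 100-bp bin (%) by distance from the midpoint (bp), for 6 motifs in member peaks and in lower-scoring distal CpG-poor peaks, with Wilson 95% bands. AP-1 reached 7.27% of member peaks in the central bins, against 4.13% of lower-scoring ones, and C/EBP stayed near 5% in both.

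**Figure D4:**
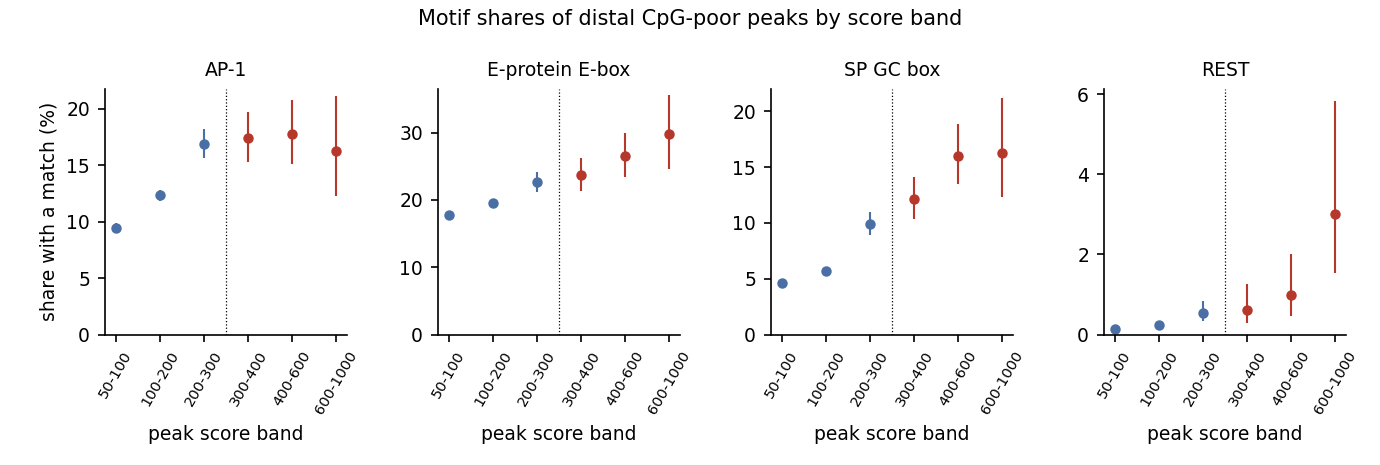
Share of distal CpG-poor peaks with a match (%) by score band for 4 motifs, with Wilson 95% intervals. Points right of the dotted line are member peaks, left of it lower-scoring peaks, and peaks scoring 1000 or more are not drawn. AP-1 was at 16.9% just left of the line and 17.4% just right of it, while REST was at 3.02% in the last band drawn.

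Member peaks had more LSD1 peaks around them than lower-scoring ones. The median number of other peaks within 25 kb was 4 for member peaks and 2 for lower-scoring distal CpG-poor peaks. Another peak lay within 5 kb of 1241 member peaks (56.8%, 54.7 to 58.8%), 17.1 points above the 39.7% of lower-scoring ones (14.96 to 19.2). Against high-scoring peaks of other kinds the interval of the difference includes 0, with 55.2% of the CpG-rich distal peaks (difference 1.54 points, -4.32 to 7.51) and 60.01% of the CpG-poor peaks near starts (difference -3.24 points, -6.56 to 0.098). A further member peak lay within 12.5 kb of 360 member peaks (16.5%), and a member peak lay that close to 8.17% of lower-scoring ones, a difference of 8.30 points (6.78 to 9.94). Chaining member peaks at 12.5 kb gave 164 clusters of 2 or more and 23 of 3 or more.

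The largest cluster lay on one side of Socs3, the suppressor of cytokine signalling 3, which shuts off signals of leptin and interleukin-6 type receptors. Its 7 member peaks, at chr11:117934137-117965101, spanned 30.97 kb and scored 327 to 1586, and the promoter peak of Socs3 scored 1230. With an eighth peak on the other side of the start, Socs3 had the most member peaks of any gene, and none of the 8 held an AP-1 match. The next cluster held 5 member peaks over 27.4 kb near Snai1 and Ube2v1 (scores 410 to 1478). Clusters of 4 lay among histone genes of chromosome 13, in the Tubd1 and Vmp1 region of chromosome 11 and near the actin gene Actg1.

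Assigned to the nearest protein-coding start, member peaks fell to 1682 genes, of which 1336 had 1 and 346 had 2 or more. Zmiz1, a coregulator of the PIAS-like family, had 7 (scores 321 to 966 over 349 kb) and Tns1, the focal adhesion protein tensin, had 6 (304 to 906). Genes with 5 each included 1700001O22Rik, Haao, Irf2bpl, Ptpn1, Sept9, Tnrc18, Trak1, Trib1 and Zfp36l1. Ptpn1, the phosphatase of the insulin receptor, had scores of 304 to 614. Trib1, a pseudokinase that directs C/EBP proteins to degradation, had 312 to 863, from 31.7 to 135 kb beyond its start.

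**Figure D5:**
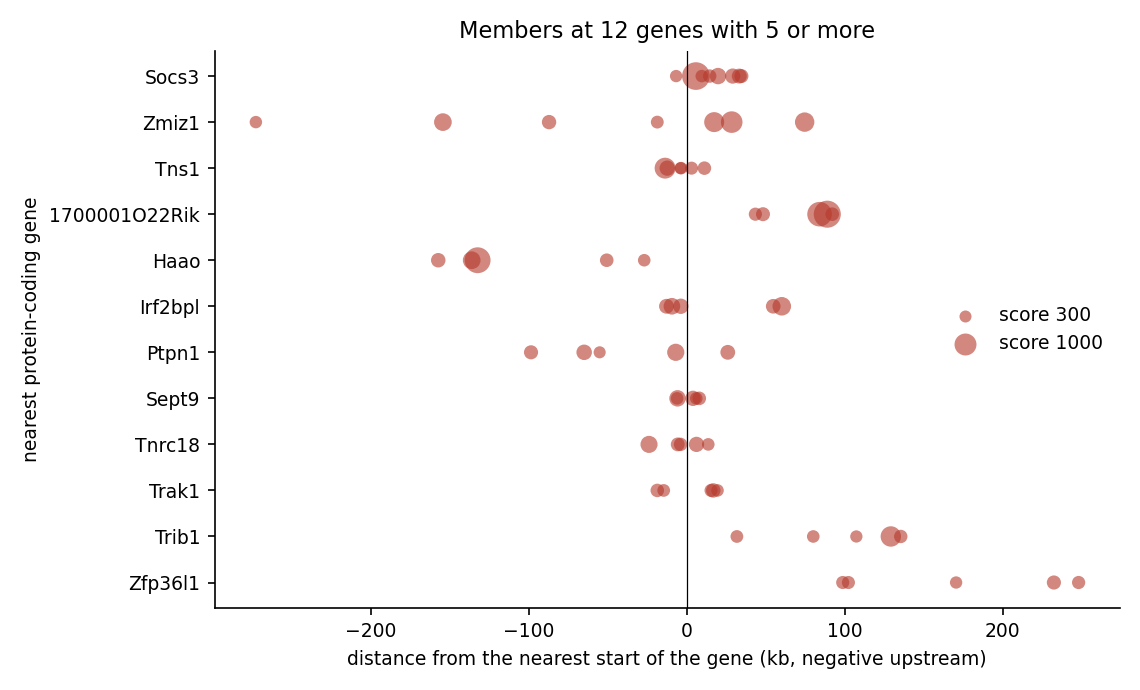
Member peaks at 12 protein-coding genes with 5 or more, by distance from the nearest start of the gene (kb, negative upstream). Each point is 1 member peak and its area follows the score. Those of Socs3 lie on one side except for 1, and those of Trib1 and Zfp36l1 are all downstream.

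The nearest gene of a member peak usually had an LSD1 promoter peak of its own. This held for 1779 member peaks (81.4%, 79.7 to 83.0%), against 78.0% of lower-scoring distal CpG-poor peaks (difference 3.42 points, 1.69 to 5.05). It also held for 83.5% of all 59175 peaks, which include the promoter peaks themselves, so it is not particular to member peaks. The median promoter score of those genes was 381 for member peaks and 376 for lower-scoring ones. By chromosome, member peaks ran from 50.4 per 100 Mb on chromosome 14 to 151 on chromosome 11. Chromosome X had 5, or 2.92 per 100 Mb, and they were 1.83% of its 273 peaks.

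Gene lists of fat biology were read beside all genes. Of 21829 protein-coding genes, 7.71% had at least 1 member peak by nearest start. Of the 294 genes on 15 lists, 72 did (24.5%), and a lower-scoring distal CpG-poor peak was assigned to 79.9% of the list genes and 49.3% of all genes. Counting member peaks from 10 kb upstream to the gene end instead, 35 list genes had one (11.9%), against 5.04% of all genes. List genes thus had more peaks of either kind, and gene length and spacing were not matched. The peaks named for the lists below were assigned by nearest start and lay 2.75 to 660 kb from it.

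Of 26 brown thermogenic genes, 1 had a member peak, Ebf3, an early B cell factor, with a score of 305.91. That share, 3.85%, has an interval (0.682 to 18.9%) that includes the 7.71% of all genes. Adipogenic transcription factors had them at 8 of 24 genes, namely Nfia, Rxra, Cebpb, Klf4, Klf9, Bcl6, Klf15 and Zfp423. Nfia, a factor of the brown fat programme, had scores of 779 and 753 at its highest 2, which lay 224 and 20.7 kb from its start. Lipid genes had them at 7 of 30 (23.3%, 11.8 to 40.9%). The 7 were Abhd5, Lpl, Mgll, Scd2, Fabp4, Lpin1 and Scd1, with Mgll, the monoglyceride lipase, at 487 in an intron. Fatty acid oxidation and mitochondrial genes had member peaks at 3 of 23 (13.0%, 4.54 to 32.1%). These were led by Slc25a33 (456, 46.5 kb away), a mitochondrial pyrimidine nucleotide carrier, and Ppara (399, 56.6 kb away), the receptor that drives fatty acid oxidation.

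Clock and hormone-response lists are given next, to be read beside the 7.71% of all genes and the 24.5% of all list genes. Circadian clock genes had member peaks at 8 of 18 (44.4%, 24.6 to 66.3%). Among these genes were the repressor Bhlhe40 (723) and Hlf (669), which had no promoter peak. Glucocorticoid response genes had member peaks at 6 of 20 (30%, 14.5 to 51.9%), led by Dusp1, a MAP kinase phosphatase (554), and Per2 (542). Adrenergic, cAMP and insulin signalling genes had them at 8 of 24, with both top peaks at Slc2a1, the GLUT1 glucose transporter (787 and 585). AP-1 and immediate-early genes had them at 7 of 23, with Fos at 780 and Myc at 647. The Fos peak lay 23.9 kb from its start and the Myc peak 300 kb, in an intron of a non-coding gene.

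Structural and other lineage lists varied more. Actin, SRF and Hippo genes had member peaks at 7 of 21 (33.3%, 17.2 to 54.6%), with Actg1 at 707 and Tead1 at 675. Preadipocyte genes had them at 6 of 19 (31.6%, 15.4 to 54.0%), with Col1a1, the type I collagen chain, at 622 and 588. Among genes selective for white fat or repressing the brown programme, 4 of 17 had them (23.5%, 9.56 to 47.3%). The 4 were Tle3, Lep, Nrip1 and Zfp423, the last a repressor of the thermogenic programme with 745. Skeletal muscle genes had member peaks at 4 of 15 (26.7%, 10.9 to 52.0%), led by Ckm and Mef2d (519). Macrophage genes had them at 1 of 14 (7.14%, 1.27 to 31.5%), C1qa (875). Neuronal genes also had them at 1 of 14 (7.14%, 1.27 to 31.5%), Snap25 (422), a synaptic fusion protein. LSD1 and its partners had member peaks at 4 of 20 (20%, 8.07 to 41.6%). These were led by Zeb1 (568) and Zeb2 (417), repressors that recruit CtBP and LSD1 complexes. The Zeb1 peak lay 74.8 kb from its start and the Zeb2 peak 660 kb. With 14 to 30 genes a list, the intervals of most lists overlap. Those of the brown thermogenic list (0.682 to 18.9%) and the circadian clock list (24.6 to 66.3%) do not. That pair was singled out of 15 lists with no adjustment, and gene length and spacing were not matched between lists.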

How the data were processed

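The deposited file is 1 list of LSD1 peaks with a chromosome, start, end, name and score. The score is the authors' deposited value for each peak, and the sources used here do not give its scale. Peaks were ranked and selected by it inside this list only. Per the labels' protocols the authors used Bowtie2 and mm10 for mapping, and the submitters' processing notes name MACS 1.41. Those sources give neither the peak threshold nor how the input library was used, and depth is unknown.

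Peaks were annotated on GRCm38.p6, the chromosomes of mm10, with GENCODE M21 (54327 protein-coding starts), using Python 3.11.15, NumPy 2.4.6 and pandas 2.3.3. Midpoints were assigned in the order coding exon, untranslated region, other exon, intron of a protein-coding gene, intron of a non-coding gene and intergenic. Shares have Wilson 95% intervals and differences Newcombe 95% intervals. With 1 library there is no test over samples. Motif matching and intervals were tested on simulated data. Of 310 list entries, 308 matched a gene symbol.

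The member peaks, lists and motifs were chosen with earlier results of these data known. Named peaks are the 15 highest-scoring, the 4 on either side of the score minimum, the 2 highest per list, those of the 5 genes with the most (13 with ties), and 1 printed sequence for each of 6 motifs. Of these, 1 gene and 1 sequence are not reported here. Windows over untranslated regions were passed over for printing, a change made after the values were seen. Score bands and width classes for motifs were also added then. Alternatives tried were other score, distance and CpG limits, windows, overlaps, gene assignments, width and GC ranges, and leaving out repeated sequence or the sex chromosomes.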

Additional observations from a re-analysis of the deposited data

How the results depend on the processing

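Among recomputed values of the main results, 67 kept their direction and call or stayed within their interval, 17 moved beyond their interval or by more than 1.5 times, 2 lost an interval clear of 0, and 0 reversed. The score minimum set the number of member peaks: 3366 at 250 and 1047 at 400. At 400 the share in introns of protein-coding genes was 38.9%, the share at non-coding starts 9.84% and the list genes with a member peak 39. At 250 the share at non-coding starts was 6.57%. With starts at over 1 kb, the intron share was 43.7%, and with a CpG ratio under 0.5 the non-coding share was 6.81%. That share was 6.18% with the start inside the peak and 5.44% with the midpoint within 500 bp, an alternative chosen after seeing the data. The AP-1 share was 12.7% in 200 bp, 24.8% in 500 bp and 39.8% in whole peaks. The AP-1 difference to lower-scoring peaks was 2.28 points both at 900 to 1400 bp (-0.21 to 4.87) and there with 45 to 55% GC (-0.76 to 5.43), the second chosen after seeing the data. In whole peaks it was 19.5 points, against 6.07 points in 300 bp, with the interval still above 0. Whole member peaks had a median width of 1171 bp and lower-scoring ones 598 bp, so more sequence was searched in member peaks. The whole-peak value therefore cannot be read as support for the AP-1 difference, although it is among the 67. The share with a promoter peak at the nearest gene was 78.7% within 500 bp of a start, 85.6% within 2.5 kb and 78.9% with the midpoint inside. By gene body, 35 list genes had a member peak. The cause of these shifts was not tested, except that longer windows hold more sequence and stricter limits fewer peaks. No paired analysis was possible because the series has 1 LSD1 library and no replicate. The unknown depth limits which weaker peaks could be called.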

Other observations

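In 6 narrower width classes, added after the values were seen, the AP-1 share of member peaks minus that of lower-scoring distal CpG-poor peaks varied. It was 9.88 points at 600 to 800 bp (2.73 to 19.1, 98 member peaks), 1.17 points at 800 to 900 bp, 1.19 points at 900 to 1000 bp, 5.93 points at 1000 to 1200 bp (2.13 to 9.85, 669 member peaks), -1.17 points at 1200 to 1400 bp and 4.23 points at 1400 to 2000 bp. The interval lay above 0 in the first and the fourth class and included 0 in the other 4. REST had 12 of its 23 member peaks at 1000 to 1200 bp, where 0 of 975 lower-scoring peaks had a match. At 900 to 1000 bp, 5 of 251 member peaks and 13 of 1357 lower-scoring peaks had one, and the interval of the difference, 1.03 points (-0.289 to 3.65), includes 0.

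Small RNA genes with a start at a member peak comprised 13 microRNA, 7 snRNA, 5 snoRNA and 3 miscellaneous RNA genes. Among them were the spliceosomal RNA genes Rnu2-10 (score 670), Rnu5g (449) and Rnu1a1 (342), which have near-identical copies. On chromosome Y, 3 of 14 peaks were member peaks.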
